A study of Mus musculus with 4 samples.

Results

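T cells of the kidney were defined from RNA alone in 4 droplet-based single-cell libraries of dissociated mouse kidney. A barcode was taken as a T cell when it held 200 to 5000 detected genes, under 50% mitochondrial UMIs (unique molecular identifiers, 1 per captured RNA molecule), at least 2 UMIs of the CD3 genes Cd3d, Cd3e and Cd3g together, fewer than 5 UMIs of the macrophage genes C1qa, C1qb and C1qc, and fewer than 2 UMIs of the B cell genes Cd79a and Ms4a1. This rule found 479 T cells, 1.38% of the 34789 barcodes that passed the limits on genes and mitochondrial RNA, among 58660 barcodes in all. Because the CD3 genes chose the members, their levels are a description and not a result.

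The kidneys came from male C3H mice (C3H/HeJ in the study's methods), 18 weeks old. WT-ND and WT-HFD were WT mice on a normal diet (ND) or on a high-fat diet (HFD, 60% of calories from fat) given for 8 weeks from 10 weeks of age. SP-ND and SP-HFD were Sweet Pee mice (MT in the labels) on the same diets, which are homozygous for a missense mutation of Slc5a2, make no functional SGLT2 glucose transporter in any cell and lose glucose in the urine. Each condition was 1 library and the number of mice behind it is not given in the sources used here, so diet and genotype have no replicates. Differences between libraries are therefore given with intervals for counting error only and with no test. For every library 10000 cells were loaded, fewer than the 16385, 15000, 14046 and 13229 barcodes in the files (WT-ND first, then WT-HFD, SP-ND and last SP-HFD, an order used throughout).

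T cells recognise peptides or lipids through the T cell receptor, a heterodimer of α and β or of γ and δ chains that signals through CD3. Naive T cells carry the homing receptor CCR7 and recirculate between blood and lymph nodes, whereas effector memory and tissue-resident cells lose it and gain adhesion and chemokine receptors such as CXCR6. γδ T cells of barrier tissues can release IL-17 without prior priming, and FOXP3-expressing regulatory T cells restrain immune responses. The kidney holds a small lymphocyte population beside its much larger macrophage and epithelial populations.

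T cell genes that the rule did not use were higher in these T cells than in all other kept barcodes. Trbc2, the constant region of the T cell receptor β chain (chr6:41546730-41548352, mm10), was at 767 CPM (a gene's UMIs scaled to the summed UMIs of the same barcodes) in T cells and at 1.64 CPM in all other kept barcodes. Il7r, the receptor for the survival cytokine IL-7, was at 414 and 2.91 CPM. Neither gene is confined to T cells, since NK or innate lymphoid barcodes held Trbc2 at 140 CPM and Il7r at 329 CPM, whereas Trac, the constant region of the α chain, was at 214 CPM in T cells and 6.90 CPM in those barcodes. The barcodes just inside the limit of 2 CD3 UMIs (100 barcodes) held Trbc2 at 424 CPM, those with 3 or more (379 barcodes) at 846 CPM, and the 237 kept barcodes just outside it with 1 CD3 UMI at 50.6 CPM. Kap, the most abundant proximal tubule marker, was at 14965 CPM with 2 CD3 UMIs and 4578 CPM with 3 or more. In all other kept barcodes it was at 16197 CPM. In the same order Slc34a1 was at 1053, 400 and 1014 CPM, Umod at 1038, 903 and 2649 CPM and Jchain at 445, 53.0 and 1333 CPM. T cells with 2 CD3 UMIs numbered 37, 23, 15 and 25 in the 4 libraries. No barcode with 2 CD3 UMIs was lost to the macrophage limit and 1 was lost to the B cell limit.

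The libraries held 93142028, 115117649, 111617794 and 90728590 UMIs in all. The T cells held 316888, 637186, 231944 and 579083 UMIs in the 4 libraries, with a median of 2213, 3630, 2641 and 2869.5 UMIs per cell. T cells of WT-HFD were thus the deepest. Mitochondrial UMIs were a median of 7.72%, 5.83%, 7.19% and 5.64% of a T cell, against 22.2%, 24.2%, 24.8% and 20.3% in other kept barcodes. Any 2 libraries shared 54 to 77 barcode sequences, 6 T cells carried a sequence that also occurs in another library, and 0 T cells were shared as T cells between libraries.

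Gated T cells made up 1.01% of kept barcodes in WT-ND (110 of 10869, exact Clopper-Pearson 95% interval 0.832 to 1.22), 1.23% in WT-HFD (119 of 9700, 1.02 to 1.47), 1.15% in SP-ND (78 of 6754, 0.914 to 1.44) and 2.30% in SP-HFD (172 of 7466, 1.98 to 2.67). Only the SP-HFD interval lay apart from the others, which overlapped each other. SP-HFD also had the largest share with at least 3 CD3 UMIs, under 30% mitochondrial UMIs and after barcodes were thinned to 1000 UMIs (0.621%, 0.612%, 0.678% and 1.43%). Barcodes under 1000 UMIs, among them 6, 2, 3 and 5 T cells, were left out of this and all later thinned values. A share of barcodes depends on how many other cells passed the mitochondrial limit, which removed 32.7%, 33.2%, 49.8% and 42.1% of barcodes, and the part of this in the T cell share was not tested beyond the 30% limit.

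Other lymphocytes were counted in the same libraries. NK or innate lymphoid barcodes, gated by at least 2 UMIs of Ncr1, Klrb1c, Klre1 and Klrb1b without CD3, were 0.285%, 0.361%, 0.252% and 0.335% of kept barcodes, and all 4 intervals overlapped. B lineage barcodes, gated by at least 2 UMIs of Cd79a and Ms4a1 without CD3, were 0.672%, 1.60%, 0.518% and 2.28%, higher on HFD in both genotypes. Whether any of these shares differs by diet or genotype was not tested.

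**Figure D1:**
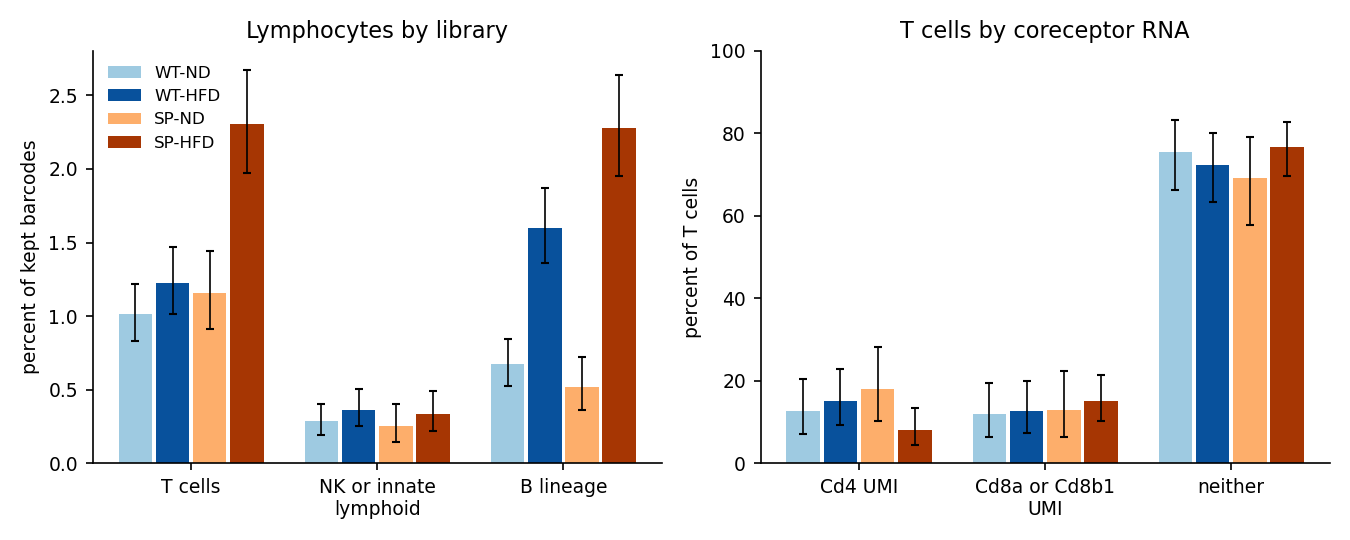
Left, gated T cells, NK or innate lymphoid barcodes and B lineage barcodes as a percent of kept barcodes; right, T cells split by coreceptor RNA as a percent of T cells, with 1 bar per library and exact 95% intervals for counting error. T cells stood at 2.30% in SP-HFD and between 1.01% and 1.23% in the other 3 libraries, while the neither-positive class made up 69.2% to 76.7% of T cells in every library.

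Helper and cytotoxic T cells are told apart by the coreceptors CD4 and CD8. Cd4 UMIs (chr6:124864692-124888221) without Cd8a or Cd8b1 UMIs were found in 14, 18, 14 and 14 T cells, and Cd8a or Cd8b1 UMIs (chr6:71373427-71379173 and chr6:71322788-71337494) without Cd4 in 13, 15, 10 and 26. No T cell held both, 0 of 479, with an exact upper limit of 0.767%. The other 83, 86, 54 and 132 T cells, 74.1% of all, held neither coreceptor and are called neither-positive. This criterion does not establish double-negative cells: coreceptor RNA was sparse (44.2 CPM of Cd4 over all T cells), the neither-positive cells had a lower median depth than the CD4 and CD8 cells (2678 against 2856 and 3140 UMIs), and after thinning to 1000 UMIs their share was 88.5%, 91.5%, 84.0% and 88.0%. Cd4 UMIs also occurred in 0, 2, 0 and 1 B lineage barcodes, which should lack them.

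CD8 T cells stood at 0.120%, 0.155%, 0.148% and 0.348% of kept barcodes. The SP-HFD interval (0.228 to 0.510) lay above that of WT-ND (0.0637 to 0.204). It overlapped those of WT-HFD (0.0866 to 0.255) and SP-ND (0.0710 to 0.272). CD4 T cells stood at 0.129%, 0.186%, 0.207% and 0.188% with overlapping intervals. Neither-positive T cells stood at 0.764%, 0.887%, 0.800% and 1.77%, again highest in SP-HFD.

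CD8 and CD4 T cells were compared across the 4 libraries, each library giving 1 sum per subset, with the library as a block. Of 986 genes tested by edgeR's quasi-likelihood test, 3 (0.304%) were higher in CD8 cells at an adjusted p (Benjamini-Hochberg) under 0.05 and 0 were higher in CD4 cells. At an unadjusted p under 0.05, 19 genes were higher in CD8 and 42 in CD4 cells. Nkg7, a cytotoxic granule protein (chr7:43437073-43438249), was at 470, 571, 533 and 1003 CPM in CD8 cells and 138, 153, 120 and 212 CPM in CD4 cells, a log2 difference of 2.05 ± 0.29 (SE, n = 4 libraries, edgeR adjusted p = 0.000507) with no overlap between subsets. Ccl5, a chemokine of memory and effector T cells (chr11:83525778-83530518), was at 2823, 2716, 492 and 2912 CPM in CD8 cells and 360, 188, 0 and 825 CPM in CD4 cells, a log2 difference of 2.89 (edgeR adjusted p = 0.00736). It was higher in the CD8 cells of every library, although the groups overlapped through SP-ND. Ccl4, a chemokine secreted on activation (chr11:83662584-83664683), was higher in CD8 cells in 3 of 4 libraries, with 22.4, 195, 492 and 578 CPM against 83.1, 8.97, 0 and 0 CPM, a log2 difference of 4.13 (edgeR adjusted p = 0.0282).

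The cytotoxic effector list had 2 of its 5 tested members (Nkg7 and Ccl5, described above) higher in CD8 cells, against 0.304% of all genes, and a median log2 difference of 1.07, against -0.04 over all genes tested. None of the 11 tested genes of the naive and recirculating list passed in this contrast, and their median was 0.02. Lef1, a transcription factor of naive T cells, was at 157, 237, 533 and 229 CPM in CD8 and 332, 188, 481 and 169 CPM in CD4 cells. The subsets held 60 CD4 and 64 CD8 cells in all. A difference that misses the threshold does not show that the subsets were alike. Without WT-HFD edgeR made 0 calls in this contrast. DESeq2 made 1 with all 4 libraries, as did edgeR without the library block.

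Lef1 and Tcf7 were lower in neither-positive than in CD4 cells, and 4 naive genes were lower than in CD8 cells. The calls against CD4 cells fell to 0 without WT-HFD, without SP-ND or without the library block. Against CD4 cells 21 genes were higher (2.13% of 986) and 7 lower (0.71%), 2.84% in either direction. Against CD8 cells 64 were higher (6.49%) and 32 lower (3.25%), 9.74% in either direction. Lef1 was at 131, 57.3, 151 and 130 CPM in neither-positive cells, lower in all 4 libraries than in CD4 and CD8 cells. The log2 differences were -1.24 ± 0.33 (SE, n = 4 libraries, edgeR adjusted p = 0.0398) and -1.26 ± 0.33 (edgeR adjusted p = 0.0234), with no overlap in either comparison. Lef1 passed in neither comparison once barcodes in which markers of other cell types made up 2% or more of UMIs were left out. Tcf7, another transcription factor of naive and stem-like T cells, was at 102, 28.6, 114 and 150 CPM in neither-positive and 194, 197, 264 and 233 CPM in CD4 cells, a log2 difference of -1.36 ± 0.36 (SE, edgeR adjusted p = 0.0398) with no overlap. Against CD8 cells the Tcf7 log2 difference was -0.94 (edgeR adjusted p = 0.1). Of the 11 tested naive and recirculating genes, 3 were lower than in CD4 cells, Lef1 and Tcf7 among them, and 4 lower than in CD8 cells, among them Dapl1 at 136, 11.01, 48.2 and 52.3 against 202, 223, 533 and 338 CPM. The list's median log2 differences were -0.55 against CD4 and -0.69 against CD8 cells, against 0.03 and 0.09 over all genes. Medians were also below 0 for 4 T cell receptor and CD3 complex genes (-0.52 and -0.49). For 7 genes of TCR proximal signalling they were -0.50 and -0.24, and 0 genes of these 2 lists passed.

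Higher in neither-positive than in CD8 cells was Maf, a transcription factor of IL-17-producing, regulatory and follicular T cells (chr8:115682942-115707794). It was at 381, 313, 181 and 236 CPM in neither-positive and 44.8, 27.9, 41.0 and 21.8 CPM in CD8 cells, a log2 difference of 3.18 ± 0.45 (SE, n = 4 libraries, edgeR adjusted p = 0.000518) in which the groups did not overlap. Cxcr6, a chemokine receptor of tissue-resident T cells, was at 275, 240, 331 and 436 against 22.4, 69.6, 123 and 175 CPM, a log2 difference of 1.68 (edgeR adjusted p = 0.00979). Nr4a1 and Atf3, immediate early transcription factors, were among the 5 highest log2 differences in the same contrast, 2.71 and 3.14, together with Sdc4, which encodes a cell surface proteoglycan and differed by 2.80. Of the 14 tested immediate early and heat shock genes, 5 were higher in neither-positive than in CD8 cells (6.49% of all genes) and 0 than in CD4 cells (2.13% of all genes). Their median log2 differences were 0.81 and 0.45, against 0.09 and 0.03 over all genes.

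Genes known from renal tubules were among those that passed. The genes with the highest log2 differences against CD4 cells were S100g, Ccnd1, Dnase1, Defb1 and Car2, of which S100g, Dnase1, Defb1 and Car2 are known from renal tubules. Car2 and Defb1 were higher than in CD4 cells in all 4 libraries, S100g in 3 and Dnase1 in 2. Of the 7 tested proximal tubule markers 4 were higher than in CD8 cells (6.49% of all genes), with a median log2 difference of 1.25, and 0 passed against CD4 cells, with a median of 1.08. Of the 3 tested thick ascending limb markers 2 were higher than in CD8 cells and 0 than in CD4 cells, and of 1 distal marker 1 and 0. Barcodes in which markers of other cell types made up 2% or more of UMIs numbered 20 of 83, 15 of 86, 2 of 54 and 4 of 132 among neither-positive cells, 3, 1, 0 and 0 among CD4 cells and 1, 1, 0 and 0 among CD8 cells. Without those barcodes there were 11 calls against CD8 cells, in which Maf (log2 difference 3.00), Nr4a1, Cxcr6 (1.87), Atf3, Hspa1a, Hspa1b, Hsp90aa1 and Jund were among those higher and Dapl1 and 1700097N02Rik lower. Against CD4 cells there was 1 call, Nkg7, higher by 1.85 (edgeR adjusted p = 0.00771), and Lef1 and Tcf7 no longer passed. Lef1 was also not among the 11 calls against CD8 cells. Without WT-HFD, and without SP-ND, edgeR made 0 calls against CD4 cells, and against CD8 cells 16 and 39. Without the library block the calls were 0 against CD4 and 9 against CD8 cells.

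**Figure D2:**
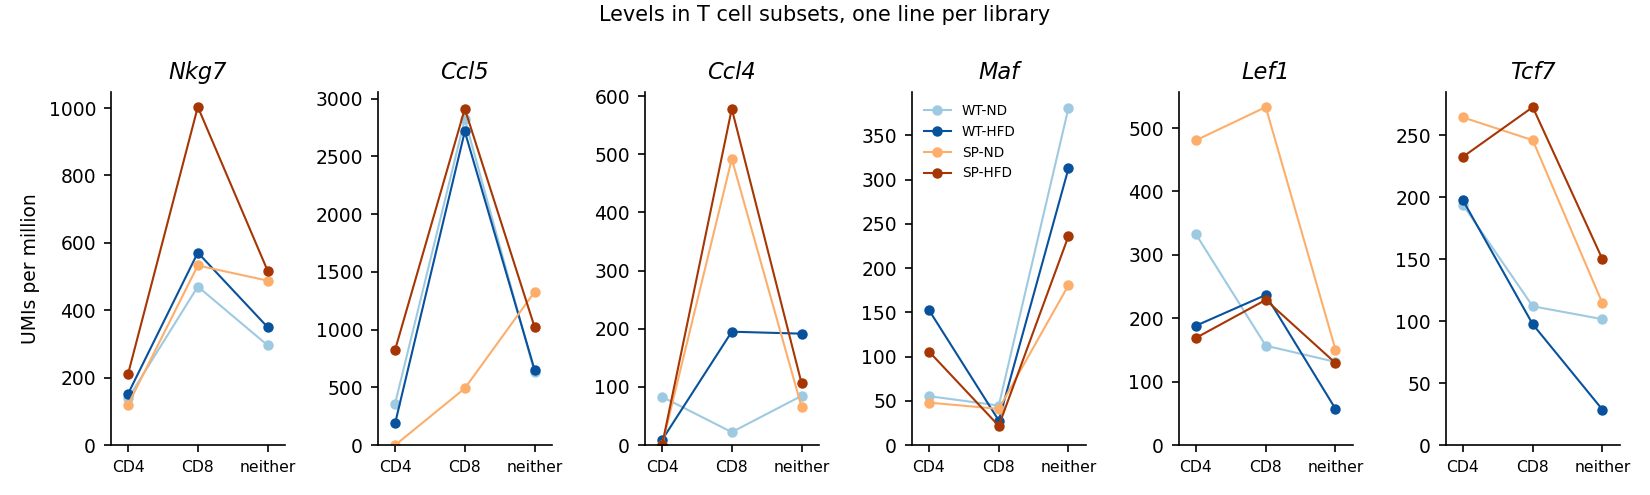
CPM levels of 6 genes (1 panel each, linear axes from 0) in the summed CD4, CD8 and neither-positive T cells of each library, with 1 line per library. Nkg7 was highest in CD8 cells and Maf highest in neither-positive cells in all 4 libraries, and Lef1 and Tcf7 were below the CD4 level in neither-positive cells in all 4.

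Between libraries, levels are CPM over the summed T cells of a library, and a gene counts as different at 2-fold or more among genes with a mean of at least 50 CPM. On this count 90 of 2286 genes (3.94%) were higher in WT-HFD than in WT-ND and 39 (1.71%) lower, and 90 of 2285 (3.94%) were higher in SP-HFD than in SP-ND and 52 (2.28%) lower. With CD4 and CD8 cells weighted equally and neither-positive cells left out, a setting also used below, 185 were higher and 256 lower in WT. The median log2 ratio over all genes was 0.06 and 0.01. Restricted to genes at least as high in T cells as in all other kept barcodes, the shares were 3.34% and 1.14% for WT and 2.35% and 0.986% for SP. Of the 2285 genes with a ratio in both diet contrasts, 23 (1.01%) were 2-fold higher on HFD in both genotypes, 7 (0.306%) were 2-fold lower in both, 2 (Atp6ap1 and Ubn2) were higher in WT and lower in SP, and 1 (Sparc) was the reverse. Among the 1318 of them at least as high in T cells as elsewhere, 10 (0.759%) were higher in both, Capg, Cd48, Cd6, Il18r1, Isg15, Lgals1, S100a4, S100a8, S100a9 and Trdc, 1 gene (0.0759%), Txk, was lower in both, and 0 were different in opposite directions. The limit of 50 CPM is a mean over libraries, and 8 of the 10 were under 50 CPM in both ND libraries, so that they passed it only through an HFD library in which they were high. S100a4 and Lgals1 were the other 2. The number of genes in the overlap is therefore a description, and nothing rests on it. Genes named from this overlap were chosen after their values were seen.

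S100a4, a calcium-binding protein of memory and effector T cells (chr3:90603771-90606045), was at 259 CPM in WT-ND, 804 CPM in WT-HFD, 181 CPM in SP-ND and 946 CPM in SP-HFD, from 82, 512, 42 and 548 UMIs in 28, 57, 15 and 65 T cells. Both HFD libraries lay above both ND libraries, by a log2 ratio of 1.63 in WT (95% counting interval 1.30 to 1.99) and of 2.39 in SP (1.93 to 2.87). After thinning to 1000 UMIs per cell, S100a4 was found in 16.3%, 31.6%, 13.3% and 30.5% of T cells and in 0%, 0.645%, 0% and 0% of B lineage barcodes.

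By subset, S100a4 was not uniform. Neither-positive cells held 305, 692, 217 and 841 CPM, higher on HFD in both genotypes. CD4 cells held 83.1, 1705, 144 and 550 CPM. CD8 cells held 157 and 111 CPM in the WT libraries, and 0 and 1658 CPM in the SP libraries. The CD4 and CD8 sums rest on 10 to 26 cells each.

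Lgals1, which encodes the glycan-binding lectin galectin-1 (chr15:78926725-78930465), was at 211, 498, 241 and 791 CPM, with log2 ratios of 1.23 (0.85 to 1.64) in WT and 1.71 (1.31 to 2.14) in SP. Capg, an actin-capping protein, was at 34.7, 133, 47.4 and 221 CPM, and Il18r1, a chain of the IL-18 receptor, was at 37.9, 84.7, 43.1 and 117 CPM. In both genes, as in Lgals1, the 2 HFD libraries were above the 2 ND libraries. Isg15, an interferon-stimulated gene, was at 18.9, 67.5, 30.2 and 86.3 CPM, though the interferon-stimulated list as a whole was at 820, 1205, 1104 and 1095 CPM with a log2 ratio of 0.55 (0.35 to 0.76) in WT and -0.01 (-0.22 to 0.20) in SP. Txk, a Tec family kinase downstream of the T cell receptor that is also in the NK or innate lymphoid marker list, was lower on HFD, at 211, 95.7, 349 and 171 CPM.

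S100a8 and S100a9, neutrophil alarmins, entered the overlap through 2 WT-HFD barcodes and 1 SP-HFD barcode with 5 or more of their UMIs. Neutrophil markers summed to 0 UMIs in the T cells of both ND libraries and reached 0.312% of UMIs for WT-HFD T cells and 0.007% for those of SP-HFD. Outside the overlap, the genes with the highest ratios under the same restriction were Ngp (neutrophilic granule protein) and Ikzf2 in WT, and Mgp in SP, where 395 of 400 UMIs lay in 1 barcode. For SP-HFD to WT-HFD, Ngp had a log2 ratio of -5.50, beside -6.01 for S100a9 and -5.41 for S100a8. Among genes at least as high in T cells as elsewhere, Dapl1 had the lowest ratio in WT (-2.07) and Klf4, a transcription factor of quiescent T cells, in SP (-2.00).

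The tissue residence and memory list summed to 1707, 2866, 2117 and 3379 CPM, log2 ratios of 0.75 (0.61 to 0.89) in WT and 0.67 (0.53 to 0.82) in SP. S100a4, described above, is part of both sums. Of the 8 measured members 7 were above 0 in each genotype, with medians of 0.54 in WT and 0.34 in SP against 0.06 and 0.01 over all genes, and 1, S100a4, was 2-fold higher in each (3.94% of all genes in each). Rgs1, a brake on chemokine receptor signalling in resident cells, was at 470, 819, 539 and 641 CPM. Cxcr6 was at 240, 196, 263 and 370 CPM and Ccr2, a receptor for entry into inflamed tissue, at 75.7, 91.0, 99.2 and 178 CPM, both highest in SP-HFD. In T cells without UMIs of Trdc or Il17a, genes taken up below, Cxcr6 was at 235, 215, 256 and 269 CPM. Itgae, the αE integrin of epithelium-associated T cells, was below the level limit, with 1, 16, 0 and 28 UMIs in 1, 7, 0 and 14 cells, at least 3.74-fold higher in SP-HFD than in SP-ND at a floor of 3 counts per library.

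Naive and recirculating genes were highest in SP-ND and lower on HFD within SP. The list summed to 2850, 2611, 4626 and 3114 CPM, a log2 ratio of -0.57 (-0.68 to -0.46) in SP. In WT it was -0.13 (-0.24 to -0.01), and this value changed sign under 5 of the 7 other settings. Of the 11 measured genes 10 were below 0 in each diet contrast, with medians of -0.32 in WT and -0.61 in SP against 0.06 and 0.01 over all genes.

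Single naive genes were uneven between genotypes. Lef1 (chr3:131110471-131224356) was at 158, 100, 250 and 149 CPM and Ccr7, the lymph node homing receptor (chr11:99144196-99155077), at 110, 95.7, 190 and 116 CPM. S1pr1, the sphingosine 1-phosphate receptor that lets T cells leave tissue, was at 110, 94.2, 241 and 109 CPM, with a log2 ratio of -1.15 (-1.69 to -0.60) in SP and -0.23 (-0.86 to 0.41) in WT. Tcf7 was at 114, 65.9, 155 and 176 CPM, with log2 ratios of -0.79 (-1.46 to -0.10) in WT and 0.18 (-0.38 to 0.77) in SP. Whether these diet ratios differ between genotypes was not tested.

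In single T cells, S100a4 and naive gene RNA seldom occurred together. UMIs of Ccr7 or Lef1 were found in 40%, 28.6%, 44.9% and 30.8% of T cells. Of the 165 T cells with S100a4 UMIs, 17 (10.3%) also held one of these genes, against 149 of 314 (47.5%) without S100a4, and the counts were 4 of 28, 8 of 57, 1 of 15 and 4 of 65 in the separate libraries. This is a description of the cells and not a test across samples.

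**Figure D3:**
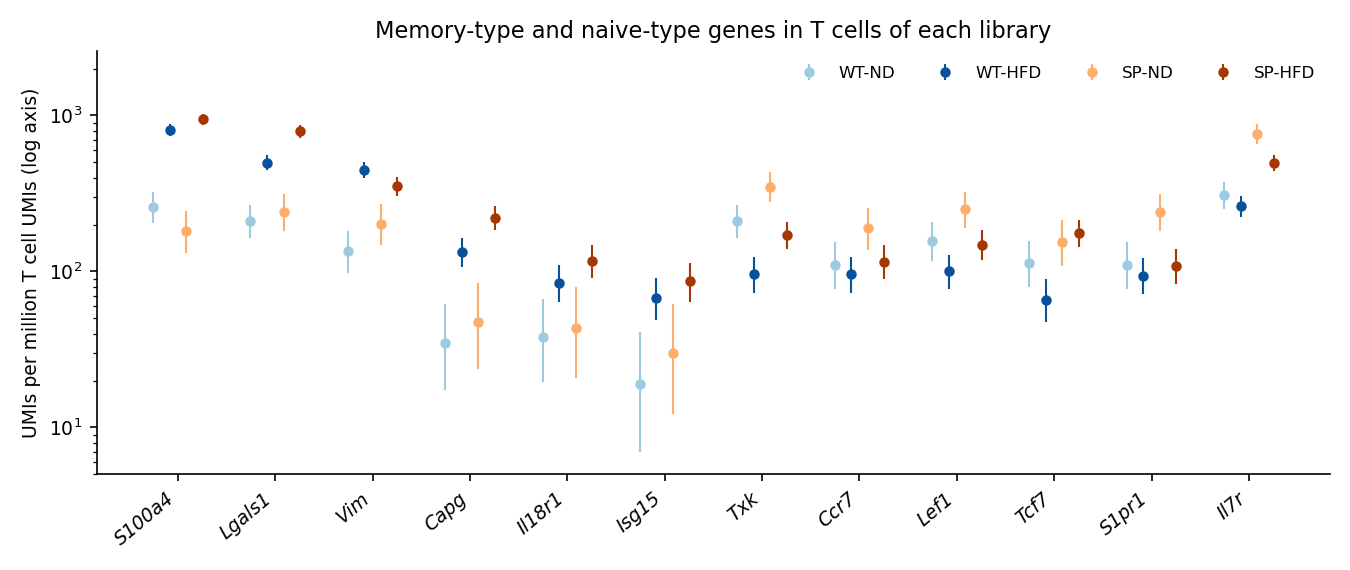
CPM over T cells (log axis) of 12 genes in each library, with exact 95% Poisson intervals for counting error. S100a4, Lgals1, Vim, Capg, Il18r1 and Isg15 lie higher in both HFD libraries than in both ND libraries, Txk lies lower in each HFD library than in the ND library of the same genotype, and Ccr7, Lef1, S1pr1 and Il7r lie lower in SP-HFD than in SP-ND.

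RNA of γδ T cells was concentrated in SP-HFD. Trdc, the constant region of the δ chain (chr14:54142851-54148868), was counted 7, 31, 3 and 105 times in 5, 9, 2 and 20 T cells, or 22.1, 48.7, 12.9 and 181 CPM. SP-HFD was above SP-ND by a log2 ratio of 3.81 (2.22 to 6.11) and above WT-HFD by 1.90 (1.31 to 2.53), while the WT diet ratio of 1.14 had an interval that included 0 (-0.07 to 2.57). Of the 20 SP-HFD cells with Trdc, 18 also held RNA of a γ chain constant region and 0 held Trac, the α chain constant region (chr14:54220521-54224206). All 20 were neither-positive, and over the 4 libraries 33 of 36 Trdc-positive cells were. In WT-ND, WT-HFD and SP-ND, 0 of 5, 4 of 9 and 2 of 2 Trdc-positive cells held γ chain constant region RNA. Of the same cells 3, 8 and 2 held no Trac.

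Il17a, the cytokine IL-17A (chr1:20730905-20734496), had 0, 9, 0 and 103 UMIs in 0, 2, 0 and 9 T cells, of which 53 lay in 1 SP-HFD cell. It was at least 13.8-fold higher in SP-HFD than in SP-ND at a floor of 3 counts per library. At the same floor the log2 ratio of WT-HFD to WT-ND was 0.58, and the counting interval of the WT ratio included 0 on the log2 scale. Cd163l1, a scavenger receptor that marks IL-17-producing γδ T cells (chr7:140218267-140231145), had 0, 6, 0 and 39 UMIs in 0, 3, 0 and 12 cells, and Trdv4, a δ chain variable segment, 0, 5, 0 and 18 UMIs. Il17f was listed at 0 in all 4 libraries.

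T cells with Il17a, Cd163l1 or Trdv4 numbered 0 of 110, 4 of 119, 0 of 78 and 16 of 172, shares of 0%, 3.36%, 0% and 9.30%. A count of 0 allows up to 3 of 110 cells with a UMI of these genes in WT-ND and 3 of 78 in SP-ND, which does not limit the number of cells that express them, and a difference between WT-HFD and WT-ND was not detectable at this depth. All 20 of these cells were neither-positive. The 9 SP-HFD cells with Il17a held 15 UMIs of Tcrg-C1, a γ chain constant region, 17 of Maf and 44 of Cxcr6, all 9 held S100a4, and none held Trac, Cd4, Cd8a, Ccl5 or Ifng. Of these 9 cells 7 held Trdc and 6 held Tcrg-C1. Trbc2, of the β chain, had 14 UMIs in 7 of them (77.8%). Among all T cells with neither Trdc nor Il17a UMIs, 77.8% held Trbc2.

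The 13 further SP-HFD cells with Trdc and no Il17a were of like composition in part. They held 18 UMIs of Tcrg-C1, 21 of Cd163l1 and 102 of S100a4, but also 87 of Ccl5 and 8 of Ifng in 4 and 3 cells. Trbc2 had 31 UMIs in 11 of the 13. The summed type 17 list stood at 846, 719, 379 and 1029 CPM, and its abundant members Tmem176a and Tmem176b were higher in other kept barcodes (518 and 464 CPM) than in T cells (250 and 247 CPM).

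Regulatory T cell RNA was most abundant in WT-HFD. Foxp3, the lineage transcription factor (chrX:7573644-7595245), had 2, 19, 2 and 4 UMIs in 2, 8, 1 and 3 T cells, a log2 ratio of WT-HFD to WT-ND of 2.24 (0.19 to 5.39). The regulatory list summed to 297, 603, 397 and 418 CPM, with a log2 ratio of 1.02 (0.69 to 1.36) in WT and 0.08 (-0.28 to 0.44) in SP, and 3 of its 4 measured members were 2-fold higher in WT-HFD than in WT-ND against 0 in SP (3.94% of all genes in each). Ctla4, one of the 3, passed the level limit through WT-HFD, where it was highest, so that the count is a description only. Whether the diet ratio differs between genotypes was not tested.

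Ikzf2, encoding the transcription factor Helios (chr1:69531214-69687245), was lowest in WT-ND, at 28.4, 129, 125 and 102 CPM. Ctla4, an inhibitory receptor (chr1:60887000-60915832), was at 28.4, 91.0, 51.7 and 31.1 CPM and highest in WT-HFD, above SP-HFD by a factor whose log2 interval excluded 0 (SP-HFD to WT-HFD -1.55, -2.40 to -0.77). Tnfrsf18, the costimulatory receptor GITR, was at 63.1, 129, 90.5 and 117 CPM. Only 2 of the 14 Foxp3-positive cells held Cd4 UMIs, both in WT-HFD, and 12 were neither-positive.

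**Figure D4:**
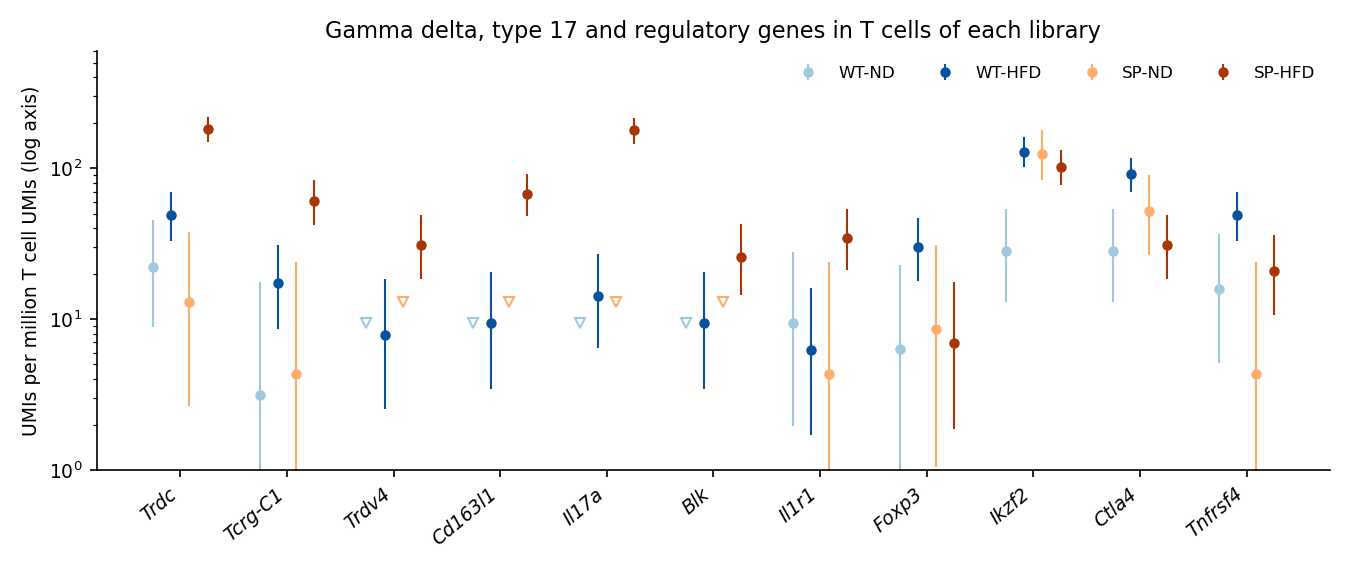
CPM over T cells (log axis) of γδ, type 17 and regulatory genes in each library, with exact 95% Poisson intervals that are cut at the foot of the axis where they reach below 1. Open triangles stand at the floor of 3 counts for libraries with 0 UMIs; SP-HFD lies highest for Trdc (181 CPM), Cd163l1 and Il17a, and WT-HFD highest for Foxp3 and Ctla4.

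The cytotoxic effector list summed to 2165, 1990, 2613 and 2913 CPM, although the log2 ratio of SP-HFD to WT-HFD became -0.033 among T cells with at least 3 CD3 UMIs. Of its 7 measured members 0 were 2-fold different in WT (3.94% of all genes were higher and 1.71% lower). In SP 1 was, Fasl, a death ligand, which was lower at 129 CPM in SP-ND and 63.9 CPM in SP-HFD (2.28% of all genes were 2-fold lower). Ccl5 was at 909, 805, 1000.2 and 1307 CPM and Ifng, encoding interferon-γ, at 341, 596, 522 and 389 CPM, with opposite diet ratios of 0.81 (0.50 to 1.13) in WT and -0.43 (-0.75 to -0.09) in SP. The Ifng ratios changed sign when CD4 and CD8 cells were weighted equally and neither-positive cells left out. Ltb, a lymphotoxin chain, was at 385, 364, 444 and 668 CPM.

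Immediate early and heat shock genes, which also respond to tissue digestion, were highest in SP-ND, at 12127, 14467, 18811 and 13052 CPM. Their log2 ratio of SP-ND to WT-ND became -0.15 with CD4 and CD8 cells weighted equally and neither-positive cells left out. The cell cycle list was at 56.8, 293, 51.7 and 143 CPM and rested on few cells, with 0, 31, 2 and 10 UMIs of Mki67, of which 24 lay in 1 WT-HFD cell. TCR proximal signalling genes summed to 1218, 1351, 1643 and 1701 CPM, and glycolysis genes to 1890, 2279, 1729 and 1730 CPM. In the NF-κB list 1 of 5 measured genes was 2-fold higher on HFD in WT and 0 in SP, and in the list of the methionine cycle and H3K27 methylation 0 of 4 were in either genotype, counts too small to set apart from the 3.94% of all genes. The summed NF-κB list had a log2 ratio of 0.40 (0.18 to 0.63) in WT and -0.07 (-0.29 to 0.15) in SP. The methionine list had 0.23 (-0.07 to 0.52) and -0.16 (-0.47 to 0.16).

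Between genotypes, T cell genes as a whole were shifted, and ratios are read against that shift. Over genes at least as high in T cells as elsewhere, the median log2 ratio was 0.30 for SP-ND to WT-ND and 0.22 for SP-HFD to WT-HFD. On ND, 5.43% of 2282 genes were 2-fold higher in SP and 9.2% lower, and on HFD 0.963% of 2285 were higher and 6.91% lower. These splits of 124 against 210 genes and 22 against 158 became 109 against 99 and 24 against 50 without T cells of 2% or more other markers. With CD4 and CD8 cells weighted equally and neither-positive cells left out, the splits became 249 against 370 and 171 against 170. Among genes at least as high in T cells as elsewhere, the shares were 6.54% and 0.684% on ND, and 1.06% and 0.303% on HFD. Il7r was above the shift, at 309, 262, 763 and 499 CPM, with log2 ratios of 1.30 (0.94 to 1.67) on ND and 0.93 (0.65 to 1.21) on HFD. The Il7r ratio on HFD became -0.15 when CD4 and CD8 cells were weighted equally and neither-positive cells left out. Klrk1, the activating receptor NKG2D, was at 41.0, 42.4, 69.0 and 104 CPM, with log2 ratios of 0.75 (-0.40 to 1.93) and 1.29 (0.61 to 2.00).

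Tubule RNA in T cell barcodes differed between the genotypes. Proximal tubule markers made up 2.01%, 1.53%, 0.222% and 0.288% of T cell UMIs, and 3.71%, 2.79%, 1.36% and 1.44% of the UMIs of other kept barcodes. All 11 measured markers were 2-fold lower in SP than in WT on both diets (9.2% of all genes on ND and 6.91% on HFD). The most abundant, Kap, an androgen-regulated kidney protein, was at 12165, 9873, 1061 and 1936 CPM. Thick ascending limb markers were at 0.109%, 0.148%, 0.249% and 0.211%, with Umod the most abundant, and 0 of the 5 were at 0 in any library. The part of tubule RNA in the shift of T cell genes was not tested.

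RNA of several other cell types differed between diets, and its part in the diet ratios was not tested beyond the alternatives given here. Distal and collecting duct markers were at 0.047%, 0.098%, 0.056% and 0.101% of T cell UMIs, with Slc12a3 the most abundant and 0 of the 8 at 0 in any library, and their log2 ratios of HFD to ND were 1.06 (0.80 to 1.32) in WT and 0.85 (0.57 to 1.13) in SP. Podocyte markers, with Podxl the most abundant, numbered 88, 49, 14 and 13 UMIs, with log2 ratios of -1.85 and -1.43, and endothelial markers, with Emcn the most abundant, had -1.02 in WT and -0.36 in SP, the last with an interval that included 0. NK or innate lymphoid markers, of which Txk was the most abundant, had -0.69 and -1.16, and stromal markers, led by Acta2, had 1.98 in SP from 7 and 69 UMIs. Plasma cell markers were at 0.006%, 0.033%, 0.004% and 0.012% of T cell UMIs, with Jchain the most abundant, and 0, 12, 0 and 5 T cells held 5 or more UMIs of Igkc, Igha and Jchain. Macrophage markers were at 0.025%, 0.011%, 0% and 0.001%, almost all of them Lyz2 with 74, 60, 0 and 5 UMIs, of which 64 in WT-ND and 45 in WT-HFD lay in 1 cell each. Without the T cells that held such RNA of other immune cells or of Mgp, an alternative chosen after the data were seen, the S100a4 log2 ratio was 2.26 in WT and 2.42 in SP. Among the T cells so left out, 1, 6, 0 and 0 held 5 or more UMIs of Cd74 and H2-Aa, genes of antigen-presenting cells. Cd74 had a log2 ratio of SP-HFD to WT-HFD of -4.67.

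**Figure D5:**
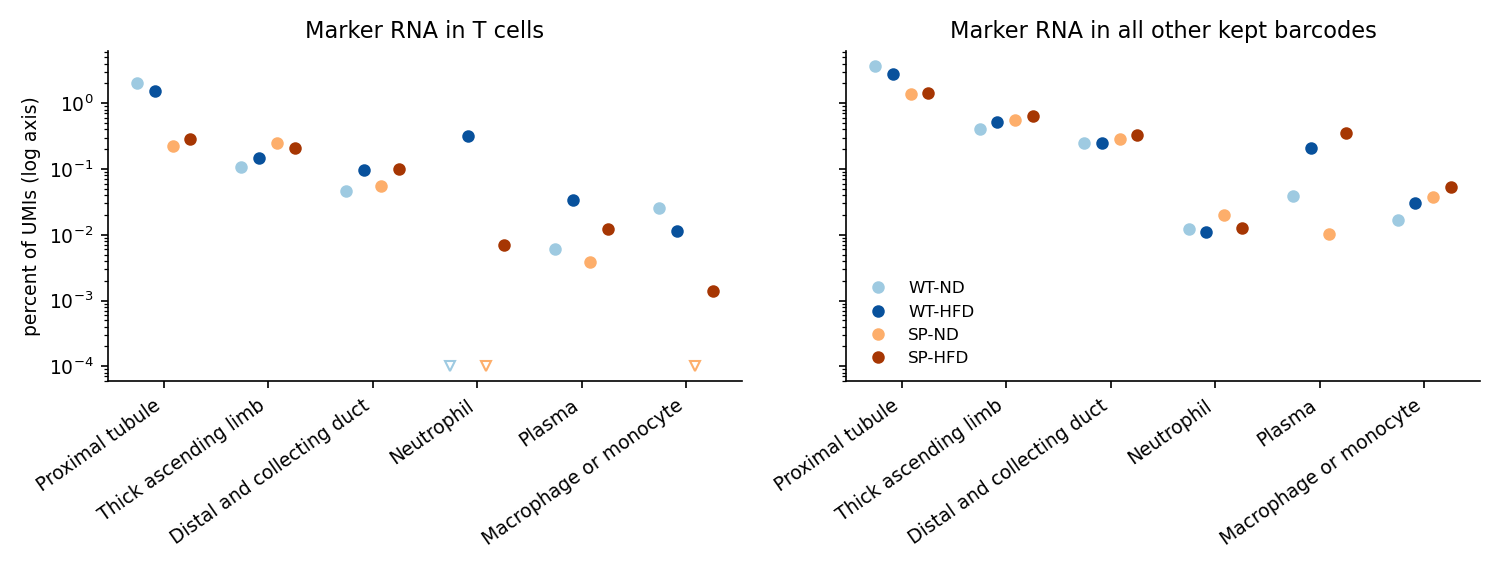
Marker RNA of 6 other cell types as a percent of UMIs (log axis), left in T cells and right in all other kept barcodes, with 1 point per library. Open triangles at the foot mark libraries with 0 UMIs; proximal tubule RNA in T cells stands at 2.01% and 1.53% in WT and at 0.222% and 0.288% in SP, and neutrophil RNA at 0.312% in WT-HFD.

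T cells were set against NK or innate lymphoid barcodes over the 4 libraries. Of 3658 genes tested, 95 (2.6%) were higher in T cells and 59 (1.61%) higher in NK barcodes by edgeR, 4.21% in either direction. The 154 calls became 74 without WT-ND, 84 without WT-HFD, 100 without SP-ND and 67 without SP-HFD, and 63 without the library block. The highest log2 differences toward T cells were those of Gm8369, an unnamed gene model, Ccr7 (110, 95.7, 190 and 116 against 0, 0, 0 and 12.4 CPM), Trac, S1pr1 and Lef1. Of the 14 tested cytotoxic effector genes 9 were lower in T cells, with a median log2 difference of -1.94 against -0.02 over all genes. Gzma, a granzyme, was at 0, 26.7, 121 and 1.73 CPM in T cells and 2322, 5717, 1825 and 4387 CPM in NK barcodes, and Tyrobp, the DAP12 signalling adaptor, at 50.5, 76.9, 12.9 and 63.9 against 975, 1667, 1708 and 2082 CPM.

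Some genes did not set the 2 populations apart. S100a4 was at 228, 297, 844 and 347 CPM in NK barcodes, overlapping T cells (log2 difference 0.39, edgeR adjusted p = 0.913), and its NK level in SP-ND lay above that in SP-HFD. Il7r was at 30.5, 414, 589 and 471 CPM in NK barcodes (edgeR adjusted p = 0.697). Tagln, a smooth muscle gene, was at 2231, 17.5, 19.6 and 1276 CPM in NK barcodes, and its part in this contrast was not tested.

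Against B lineage barcodes, 373 genes (10.2%) were higher in T cells and 377 (10.3%) higher in B barcodes. The 750 calls became 444 without WT-HFD and 404 without SP-HFD. Trbc2, Il7r, Cxcr6, Ifng and Icos, the inducible costimulator, had the highest log2 differences toward T cells, with Trbc2, Il7r, Cxcr6 and Icos at 0 in the B barcodes of all 4 libraries. The genes furthest toward B barcodes were immunoglobulin genes and Jchain, with Igkc at a mean of 231947 CPM, so that plasma cell RNA was abundant in the B lineage gate.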

How the data were processed

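Kidneys were dissociated enzymatically without a sort and run on Chromium 3′ v3.1 chemistry. The authors deposited raw UMI counts per gene and barcode for each library. Headers of the deposited files name Cell Ranger 6.1.2, while the submitters' notes list Cell Ranger 2.1.1 and mm10. The study's doublet removal and ambient RNA correction were not repeated, and no doublet caller was run. Members, gates and gene lists were chosen with earlier results of these data known. T cells were gated as described, and counts were summed per library and divided by the T cell total (CPM). Counts carry exact Poisson 95% intervals, ratios exact conditional binomial intervals and shares Clopper-Pearson intervals, all for counting error only. Subsets, NK and B barcodes were compared with edgeR 4.0.16 (quasi-likelihood, TMM, library as block, gate genes left out, Benjamini-Hochberg) in R 4.3.3, tested on simulated data first, with DESeq2 1.42.0 as an alternative. The libraries serve as replicates there, and library pairing is by construction, since both sums come from 1 library. Coordinates are those of GENCODE for mm10. Named genes were those of the lists and the 10 highest and 10 lowest called log2 differences of CD8 against CD4 cells (5 and 5 in other contrasts) with a mean of at least 50 CPM. Between libraries they were the 5 highest and 5 lowest ratios, again among genes at least as high in T cells as elsewhere. Genes outside this rule were chosen after their values were seen. Some genes measured are not reported here.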

Additional observations from a re-analysis of the deposited data

Results flagged for a closer look

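For the gene lists and the gene given here the diet ratio pointed in opposite directions in the genotypes and its counting interval excluded 0 in both, with 1 library per condition, and these differences were not tested. Lists of opposite sign in which an interval included 0 are left out. The summed type 17 list had a log2 ratio of HFD to ND of -0.23 in WT T cells and 1.44 in SP T cells. This list, with Tmem176a the most abundant, stood at 67.7%, 67.7%, 39.9% and 115% of its level in other kept barcodes. It is thus not particular to T cells. Immediate early and heat shock genes had 0.25 in WT and -0.53 in SP. The nuclear RNA list, Malat1 and Neat1, had 0.25 in WT and -0.45 in SP. Proximal tubule markers had -0.40 in WT and 0.38 in SP, and thick ascending limb markers 0.44 and -0.24. Ifng had 0.81 in WT and -0.43 in SP. Outside the gate, 26 barcodes met every other criterion for a T cell but held 50% or more mitochondrial UMIs.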

How the results depend on the processing

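SP-HFD had the highest T cell share under every alternative run. The shares were 1.40%, 1.66%, 1.82% and 3.20% under 30% mitochondrial UMIs (WT-ND, WT-HFD, SP-ND, SP-HFD), 0.621%, 0.612%, 0.678% and 1.43% after thinning to 1000 UMIs, 0.672%, 0.990% and 1.97% with at least 3 CD3 UMIs in WT-ND, WT-HFD and SP-HFD, and 0.791% in WT-ND without T cells holding 2% or more other markers. Requiring 2 coreceptor UMIs gave 1.82%, 5.88%, 2.56% and 1.16% CD4 cells, 94.5%, 85.7%, 89.7% and 89.0% neither-positive cells, and 3.64% and 9.88% CD8 cells in WT-ND and SP-HFD. Thinned cells gave 3.85%, 3.42%, 8.00% and 2.99% CD4, 88.5%, 91.5%, 84.0% and 88.0% neither-positive, and 5.13% and 8.98% CD8 cells in WT-HFD and SP-HFD. The causes of these and the following changes were not tested.

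Counts of genes 2-fold different between libraries depended on the level limit and on weighting. They were 129, 142, 334 and 180 as reported (WT diet, SP diet, SP-ND to WT-ND, SP-HFD to WT-HFD) and 581, 676, 1111 and 627 at 20 CPM. With CD4 and CD8 cells weighted equally and neither-positive cells left out (equal weights below), they were 441, 519, 619 and 341. Without T cells of 2% or more other markers they were 234, 208 and 74 for the WT diet and both genotype contrasts. For the WT diet, 266 genes passed with 3 CD3 UMIs, 247 without cells of other immune or Mgp RNA and 196 as a mean over cells, which gave 92 for SP-HFD to WT-HFD.

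The log2 ratio changed sign in 80 of 683 comparisons of levels with an alternative, 47 of them for ratios whose reported interval included 0 (cytotoxic genes, Il17a, Ccr7, S1pr1 and Il7r on the WT diets among them) and 33 for ratios whose interval did not, which follow. The naive list in WT on diet became 0.062 without cells of 2% or more other markers, 0.29 with 3 CD3 UMIs, 0.21 without cells of other immune RNA, 0.042 as a mean over cells and 0.16 with equal weights. For SP-HFD to WT-HFD in the same order it became -0.15, -0.080, -0.076, -0.029 and -0.26. The residence list for SP-HFD to WT-HFD became -0.19, -0.11, -0.12 and -0.038 in the first 4 settings, and S100a4 became -0.20, -0.047, -0.15 and -0.061, and -0.024 under 30% mitochondrial UMIs. The cytotoxic list became -0.033 for SP-HFD to WT-HFD with 3 CD3 UMIs, and for SP-ND to WT-ND -0.014 without cells of 2% or more other markers, -0.0041 under 30% mitochondrial UMIs and -1.55 with equal weights. Equal weights also gave γδ genes -1.26 and Ifng -0.037 in the WT diet contrast, and Ifng 2.54 in the SP diet contrast. For SP-ND to WT-ND they gave residence -0.052, immediate early genes -0.15 and Ifng -2.00, and for SP-HFD to WT-HFD type 17 -0.043, Lef1 -0.094, Il7r -0.15 and Ifng 0.58. Equal weights leave out neither-positive cells, 33 of the 36 Trdc-positive cells and all 11 with Il17a among them. The γδ and type 17 values of this setting therefore describe few or none of those cells.

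Without the library block (no pairing of the sums of 1 library), edgeR called 1 gene between CD8 and CD4 cells, 0 between neither-positive and CD4, 9 between neither-positive and CD8 and 63 between T and NK, against 3, 28, 96 and 154. Without the filter on low counts the calls were 6, 87, 320 and 1392 for CD8 against CD4, neither-positive against CD4, T against NK and T against B, and DESeq2 called 1 between CD8 and CD4. Without barcodes of 2% or more other markers 1 and 11 genes were called between neither-positive and CD4 or CD8 cells. Leaving out 1 library gave 0 to 5, 0 to 36, 16 to 92, 67 to 100 and 404 to 881 calls in the 5 contrasts. The lone library per condition and the few UMIs of single genes limit what these data show.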
